A study of Mus musculus with 6 samples.

Results

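The genes described here are 44 mouse genes of ribosome biogenesis and cell growth, a programme that Myc is known to raise. They were chosen by name and role, with earlier results of these data known. They cover RNA polymerase I, small nucleolar ribonucleoproteins (snoRNPs), processing of both ribosomal subunits, abundant nucleolar proteins, and polyamine and pyrimidine supply with telomerase. Of the 44, 43 had a probe set on the array whose only gene symbol was theirs, out of 19938 genes tested, and Noc2l was not analysed here. Where a gene had several probe sets, the one with the highest mean over all arrays was used. The list is named for Myc, but the arrays carry no test of which of these genes Myc bound or drove in these cells.

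Each culture was read on 1 array, an Affymetrix Mouse Gene 1.0 ST chip, and the cells were female mouse embryonic stem (ES) cells of mixed C57BL/129 background. In 3 cultures both copies of Rad21, also called Scc1, a core subunit of the cohesin ring, were flanked by lox sites (lox/lox), and in 3 both were wild type (wt/wt). All 6 carried ERT2-Cre, a Cre recombinase that moves into the nucleus when 4-hydroxytamoxifen (4-OHT) binds it, and all were given 4-OHT for 24 h, at 80 nM by the sample labels. All were grown on laminin in N2B27 medium with 2i and LIF. No cultures without 4-OHT were among the samples, and the labels do not say how many cell lines stand behind a genotype, so a difference between the genotypes includes any that existed between the lines before treatment. The values are log2 expression values. A change is the lox/lox mean minus the wt/wt mean, and it was called at an adjusted p under 0.05 in limma, a linear model test with the spread shared across genes, with Benjamini-Hochberg adjustment over all 19938 genes.

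Ribosome biogenesis begins in the nucleolus, where RNA polymerase I transcribes a long precursor of the ribosomal RNAs. Small nucleolar RNAs with their protein partners guide chemical modification of that precursor, and a large set of assembly factors fold it, cut it and join it to ribosomal proteins to make the small and the large subunit. Myc is a transcription factor that binds CACGTG and related E-boxes with its partner Max, and it is known for raising this programme in growing cells. Mouse ES cells divide fast and make many ribosomes.

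The genotypes were as labelled. Rad21 read 10.05, 9.99 and 10.01 on the wt/wt arrays (replicates 1 to 3) and 6.08, 6.06 and 6.14 on the lox/lox arrays. All 12 ES cell markers on a list were above the median of the arrays, and 5 of them (Klf4, Fgf4, Sox2, Nanog and Esrrb) were called lower in lox/lox. The summed level of 12 fibroblast markers, on the log2 scale, was 12.14 to 12.25 in wt/wt and 12.32 to 12.46 in lox/lox, with none of the 12 called and 8 of them above 0. Vim (a change of 0.24) and Dcn (0.21) were higher in lox/lox without overlap, Thy1 had a change of 0.23 with overlap, and Col1a1 and Lum had changes of -0.03 and -0.0022. The summed trophectoderm markers were 9.17 to 9.26 and 8.86 to 8.90, with Tfap2c and Gata3 called lower, and the primitive endoderm markers 8.34 to 8.54 and 8.27 to 8.30, with Lama1 called lower. Each sum was taken on the unlogged scale, so the brightest genes of a list weigh most in it. For fibroblast these were Vim (11.56 in wt/wt and 11.80 in lox/lox) and Fn1 (10.37 and 10.45). For trophectoderm it was Tfap2c (7.96 and 7.08), and for primitive endoderm Lama1 (7.43 and 7.07). The part of these other marker levels in the results was not tested. Array medians lay between 4.85 and 4.94, and the arrays correlated at 0.989 to 0.995 across genes, with no pair of identical arrays. A principal component analysis was run after each genotype's mean was subtracted, so the difference between the genotypes was not part of it. On its first component (41.2% of the variance within genotypes) wt/wt replicate 2 and lox/lox replicate 3 stood apart from the other 4. Counts of calls without both are given with the results.

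Myc itself was higher in lox/lox, at 6.29, 6.73 and 6.58 in wt/wt against 7.84, 7.59 and 7.50 in lox/lox, without overlap. Its change was 1.11 with a 95% interval of 0.83 to 1.38 (limma adjusted p = 0.000633, n = 3 per genotype). Mycn, a family member that is also expressed in ES cells, was brighter on every array and lay on the opposite side of 0. It stood at 10.07, 10.16 and 10.08 in wt/wt against 9.98, 9.96 and 9.90 in lox/lox, also without overlap. The change of Mycn was -0.16 with an interval of -0.32 to 0.01, and it did not pass (limma adjusted p = 0.309). Both are given here as the background to the 43 genes. Myc protein was not measured by these arrays.

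Against that background the differences in the ribosome biogenesis genes were small. None of the 43 passed the test, while 6.16% of all genes tested did. These were 1228 genes, of which 508 were higher (2.55%) and 720 lower (3.61%). All genes tested include 8538 dim genes, with a mean at or below the median of the arrays, and none of the 43 was among them. Leaving out 1 array at a time gave between 626 and 1132 called genes overall and no called gene among the 43, and without both arrays that stood apart 697 were called, again none of the 43, whose median change was then 0.0191. The median change of the 43 was 0.0245 and the range was -0.17 to 0.32, and over all genes the median was -0.0079. Changes were above 0 in 25 of the 43 (58.1%) and in 47.5% of all genes.

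Each 95% interval gives a range for the difference of a single gene between the genotypes, and together the intervals are not a joint bound on the set. For all 43 the 95% interval of the change lay within 1.5-fold either way, which is 0.585 on the log2 scale, and the same held for 93.0% of all genes. The lowest bound among them was -0.38 and the highest 0.53. For 42 of the 43 (97.7%) the change itself was under 0.2 in size, against 80.6% of all genes. These genes were also measured tightly, with a median standard deviation within a genotype of 0.0591 against 0.109 over all genes. Their median standard error of the change was 0.0765. The values over all genes include the dim genes, and the part of brightness in these contrasts was not tested. A p that misses the threshold does not show that a gene was the same in both genotypes.

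At an unadjusted p under 0.05, limma picked 3 of the 43 (6.98%), Tert and Imp4 on the higher side and Ubtf on the lower, where 18.0% of all genes met it. This count moved with the processing. It was 7 with quantile normalization (16.3%, against 19.4% of all genes), 6 with cyclic loess and 8 with trend and robust settings (18.6%, against 19.0%). It was 1 or 2 without any single array or without both that stood apart. With the dim genes left out it was 5 (11.6%), against 26.6% of the 11400 genes kept. The arrays of the genotypes did not overlap for 11 of the 43 (25.6%), 9 of them higher in lox/lox and 2 lower. Of all genes, 22.8% did not overlap, 10.1% higher and 12.7% lower. RMA scales the arrays to one another, so a change of total RNA per cell would not appear in these values, and in bulk RNA fewer cells with a transcript and less of it per cell cannot be told apart.

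**Figure D1:**
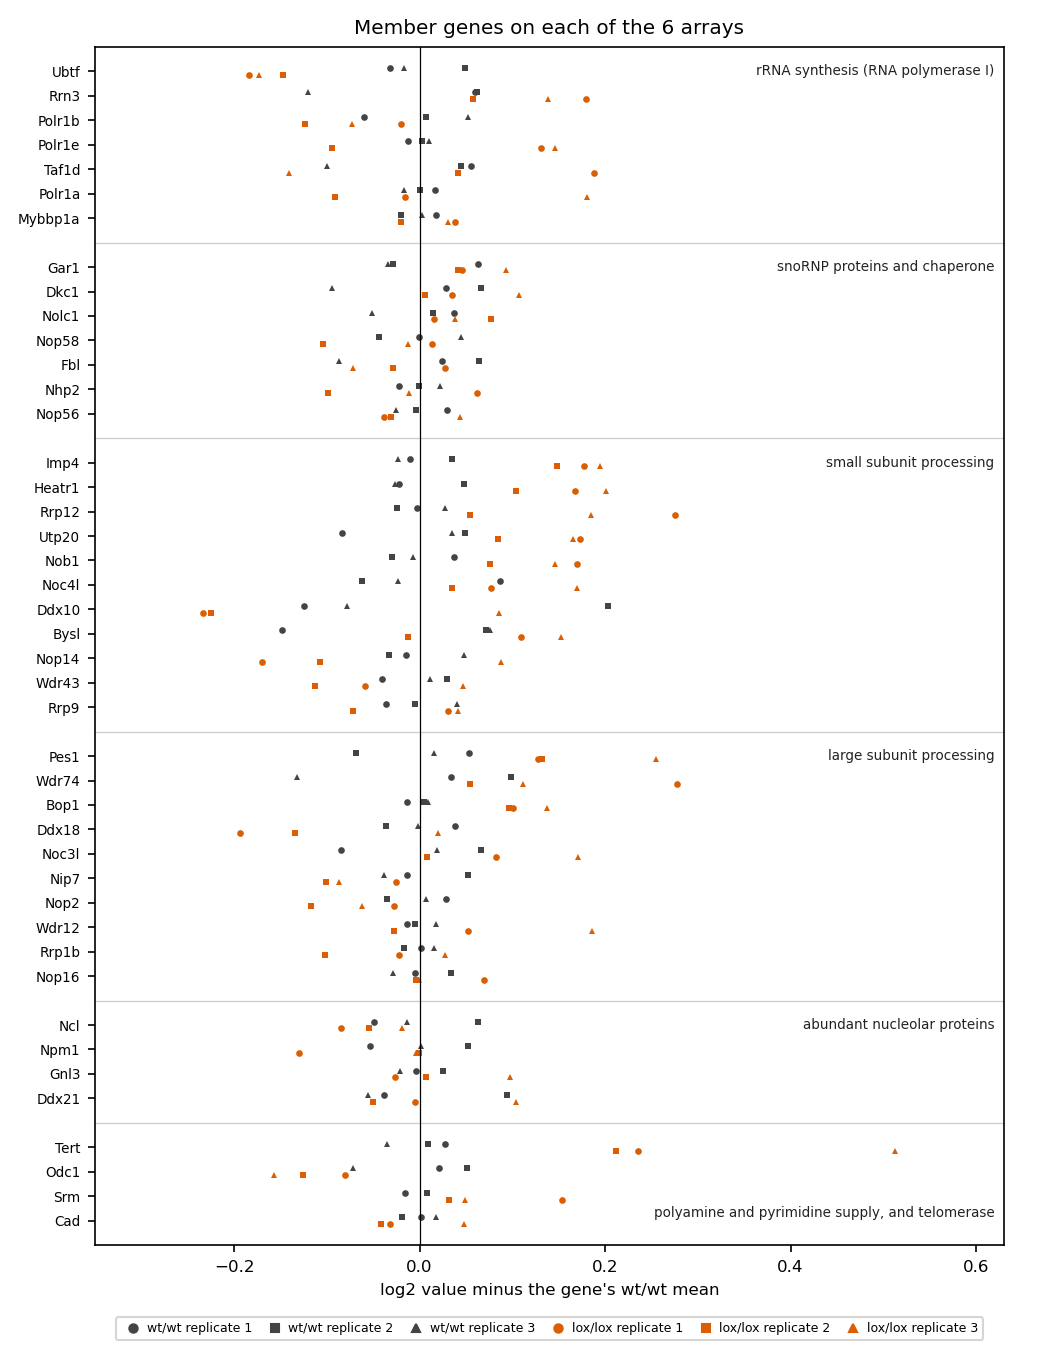
Each gene's log2 value minus its wt/wt mean (horizontal axis) on each of the 6 arrays, with 1 point per array, grouped by role (7, 7, 11, 10, 4 and 4 genes from top to bottom). Grey points are wt/wt and orange points lox/lox, with the marker shape giving the replicate. Most orange and grey points mix around 0, and the largest departure is Tert on lox/lox replicate 3.

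**Figure D2:**
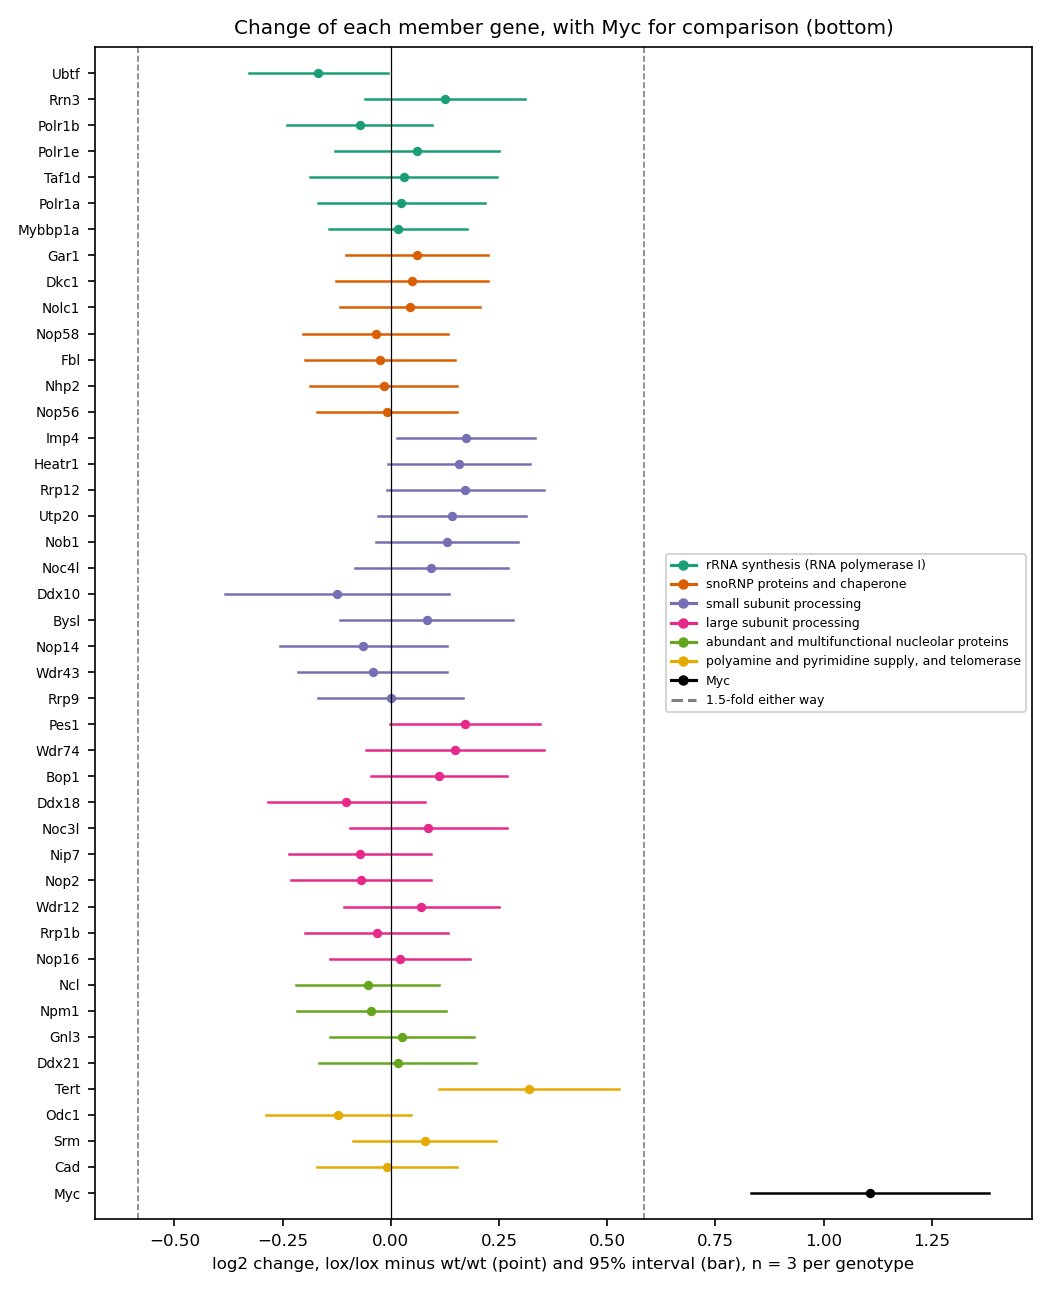
The log2 change of each gene, lox/lox minus wt/wt, as a point with its 95% interval as a bar (n = 3 per genotype), coloured by role, with Myc at the bottom. Every bar of the 43 genes stays between the dashed lines at 1.5-fold, and the bar for Myc, 0.83 to 1.38, lies beyond them.

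Among the 7 genes of ribosomal RNA synthesis none passed the test, 5 lay above 0 and 2 below, and the median change was 0.0245. Ubtf encodes UBF, which binds the ribosomal RNA genes along their length and keeps them open for RNA polymerase I. It read 9.64, 9.72 and 9.66 in wt/wt and 9.49, 9.53 and 9.501 in lox/lox. Every lox/lox array lay below every wt/wt array, but the change was small, at -0.17 with a standard error of 0.07 and an interval of -0.33 to -0.01, and it did not pass (limma adjusted p = 0.254). Rrn3, the growth-regulated factor that brings RNA polymerase I to the promoter, had the highest change of the group, 0.13. Its values were 10.21, 10.21 and 10.03 in wt/wt and 10.33, 10.21 and 10.29 in lox/lox (limma adjusted p = 0.502). The genotypes overlapped, and wt/wt replicate 3 stood lowest.

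The enzyme's own subunits lay closer to 0. Polr1a and Polr1b, the large subunits that form the catalytic core, differed by 0.02 and -0.07, and Polr1e, a smaller subunit, by 0.06. Taf1d, a subunit of the promoter factor SL1, differed by 0.03, and Mybbp1a, a nucleolar protein that binds Myb and takes part in ribosomal RNA synthesis and processing, by 0.02. Taf1d was read by 9 probe sets, 4 of which held identical values, and the others than the one used ran from -0.08 to 0.18. The probe set at 0.18 had an unadjusted p of 0.0482 in limma over all single-gene probe sets and did not pass (adjusted p = 0.276). All 5 of these genes overlapped between the genotypes.

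The 7 snoRNP genes lay between -0.03 and 0.06, with none passing the test and none without overlap. Gar1, Nhp2 and Dkc1 belong to the box H/ACA particles that turn uridine into pseudouridine, and Dkc1 (dyskerin) is the enzyme. Gar1 read 9.10, 9.01 and 9.004 in wt/wt and 9.08, 9.08 and 9.13 in lox/lox, a change of 0.06 (limma adjusted p = 0.768). Dkc1 differed by 0.05 and Nhp2 by -0.02. Nolc1, a chaperone that carries snoRNPs through the nucleolus and Cajal bodies, differed by 0.04.

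Fbl, Nop56 and Nop58 are the box C/D proteins, and Fbl (fibrillarin) is the methyltransferase that adds methyl groups to ribosomal RNA. Fbl read 10.04, 10.08 and 9.93 in wt/wt and 10.05, 9.99 and 9.95 in lox/lox. Its change was -0.02 with an interval of -0.20 to 0.15 (limma adjusted p = 0.926), and a dimmer probe set of Fbl gave 0.05. Nop58 had the lowest change of the group, -0.03, from 10.48, 10.44 and 10.52 against 10.49, 10.38 and 10.47 (limma adjusted p = 0.884). Nop56 stood at 11.14, 11.11 and 11.09 against 11.07, 11.08 and 11.15, a change of -0.01 with an interval of -0.17 to 0.15 (limma adjusted p = 0.973). For these 3 genes the arrays of the genotypes interleaved.

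Small subunit processing held the largest number of genes without overlap among the 6 roles. None of its 11 genes passed the test, but for 5 of them (45.5%) every lox/lox array lay above every wt/wt array, where 10.1% of all genes did so in that direction. These 5 were Imp4, Heatr1, Rrp12, Utp20 and Nob1. The group's median change was 0.09, with 7 genes above 0 and 4 below. The median lay between 0.06 and 0.13 over the alternatives with another scaling, filter or set of arrays. It was lowest without lox/lox replicate 3 and highest without lox/lox replicate 2. The lean upward was not seen in 45 other small subunit genes, which had a median change of -0.01. Without overlap, 4 of those 45 were higher in lox/lox and 6 lower.

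Imp4, part of the complex that joins the early small subunit precursor, read 9.64, 9.68 and 9.62 in wt/wt and 9.83, 9.80 and 9.84 in lox/lox. The lowest lox/lox array was above the highest wt/wt array. The change was 0.17 (1.13-fold) with a standard error of 0.07 and an interval of 0.01 to 0.33, and it did not pass (limma adjusted p = 0.231). Heatr1, a factor of the early precursor that is also needed for RNA polymerase I transcription, stood at 9.81, 9.88 and 9.81 against 10.00, 9.94 and 10.04, a change of 0.16 (limma adjusted p = 0.304). Rrp12, which takes part in export of the subunit, stood at 8.44, 8.42 and 8.48 against 8.72, 8.502 and 8.63, a change of 0.17 with the widest lox/lox spread of these 5 (limma adjusted p = 0.311). Utp20, a large scaffold of the precursor, differed by 0.14 and Nob1, the nuclease that makes the final cut of the small subunit RNA, by 0.13. None of these separations passed the test across genes.

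At the other end of the group, the RNA helicase Ddx10 had the lowest change, -0.12, with an interval of -0.38 to 0.13 (limma adjusted p = 0.669). It read 8.97, 9.29 and 9.01 in wt/wt and 8.86, 8.87 and 9.18 in lox/lox. The genotypes overlapped, with wt/wt replicate 2 and lox/lox replicate 3 high. Noc4l and its partner Nop14 differed by 0.09 and -0.06, Bysl, an assembly factor that binds the late nuclear precursor, by 0.08, and Wdr43, an early precursor protein, by -0.04. Rrp9, a protein of the snoRNP that starts small subunit processing, had a mean of 9.47 in both genotypes.

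Large subunit processing held 10 measured genes, none called, 6 above 0 and 4 below, with a median of 0.05. Pes1, Bop1 and Wdr12 form the PeBoW complex, which is needed to mature the large subunit RNA. Pes1 read 9.86, 9.74 and 9.82 in wt/wt and 9.93, 9.94 and 10.06 in lox/lox, without overlap, a change of 0.17 (limma adjusted p = 0.288). Bop1 stood at 9.23, 9.24 and 9.25 against 9.34, 9.34 and 9.38, also without overlap but with a change of only 0.11 (limma adjusted p = 0.484). Bop1 is the one member on chromosome 15, which also carries Rad21 and Myc. Wdr12 differed by 0.07 and its arrays overlapped.

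The helicase Ddx18 had the lowest change of this group, -0.10, from 10.66, 10.59 and 10.62 in wt/wt against 10.43, 10.49 and 10.64 in lox/lox (limma adjusted p = 0.599). Replicate 3 of lox/lox lay within the wt/wt range. Wdr74, a nucleolar assembly factor, differed by 0.15, Noc3l, a factor of the early precursor, by 0.09, and Nop16, a nucleolar protein, by 0.02. Nip7, which takes part in precursor processing, and Nop2, which methylates a cytosine of the large subunit RNA, both differed by -0.07, and Rrp1b, a nucleolar protein of the same pathway, by -0.03. All 7 overlapped between the genotypes.

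None of the 4 abundant nucleolar protein genes passed the test, and their changes ran from -0.05 to 0.03. Ncl (nucleolin), which binds nascent ribosomal RNA, read 11.70, 11.81 and 11.74 in wt/wt and 11.67, 11.70 and 11.73 in lox/lox, a change of -0.05 with an interval of -0.22 to 0.11 (limma adjusted p = 0.804). Npm1 (nucleophosmin), a histone and ribosome chaperone of the nucleolus, stood at 11.87, 11.98 and 11.93 against 11.80, 11.93 and 11.92, a change of -0.04 with an interval of -0.22 to 0.13 (limma adjusted p = 0.849). Gnl3 (nucleostemin), a GTP-binding protein of stem cell nucleoli, stood at 10.08, 10.11 and 10.07 against 10.06, 10.09 and 10.18, the highest change of the group at 0.03 (limma adjusted p = 0.916). Ddx21, a helicase that joins RNA polymerase I transcription to processing, differed by 0.02. All 4 overlapped.

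In the last group, polyamine and pyrimidine supply with telomerase, 3 of 4 genes did not overlap, 2 higher and 1 lower, where 22.8% of all genes did not, and none passed the test. Tert, the catalytic subunit of telomerase, read 6.04, 6.02 and 5.98 in wt/wt and 6.25, 6.22 and 6.52 in lox/lox. The wt/wt arrays were close together (6.01 ± 0.03, SD, n = 3) and the lox/lox arrays spread upward (6.33 ± 0.17, SD, n = 3), with replicate 3 highest. It had the highest change and the smallest p of the 43, a 1.25-fold difference with an interval of 0.11 to 0.53 on the log2 scale. It missed the threshold (limma adjusted p = 0.0814), with values from 0.0517 to 0.234 over 16 alternatives.

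Odc1, the rate-limiting enzyme of polyamine synthesis, lay on the opposite side of 0 from Tert. It stood at 11.27, 11.30 and 11.18 in wt/wt and 11.17, 11.13 and 11.10 in lox/lox, a change of -0.12 (limma adjusted p = 0.472), and the gap between the genotypes was narrow. Srm, spermidine synthase, stood at 11.28, 11.31 and 11.31 against 11.45, 11.33 and 11.35, a change of 0.08 (limma adjusted p = 0.679). Cad, the enzyme of the first steps of pyrimidine synthesis, stood at 9.48, 9.46 and 9.49 against 9.44, 9.43 and 9.52, a change of -0.01 (limma adjusted p = 0.973). Of these 3, Odc1 and Srm did not overlap, in opposite directions, and Cad did.

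Arrays of the same genotype also differed from each other over these genes. Taking each gene as its difference from its own mean over the 6 arrays, the median over the 43 genes was -0.02, 0.00 and -0.03 on wt/wt replicates 1 to 3 and 0.03, -0.03 and 0.07 on lox/lox replicates 1 to 3. Lox/lox replicate 3 had the highest value of all 6 arrays for 21 of the 43 genes, and lox/lox replicate 2 for 1. Without lox/lox replicate 3 the median change of the 43 was 0.0091, and over the runs without 1 array it went up to 0.0388. The other ribosome biogenesis genes were also highest on lox/lox replicate 3 by their median, at 0.06.

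**Figure D3:**
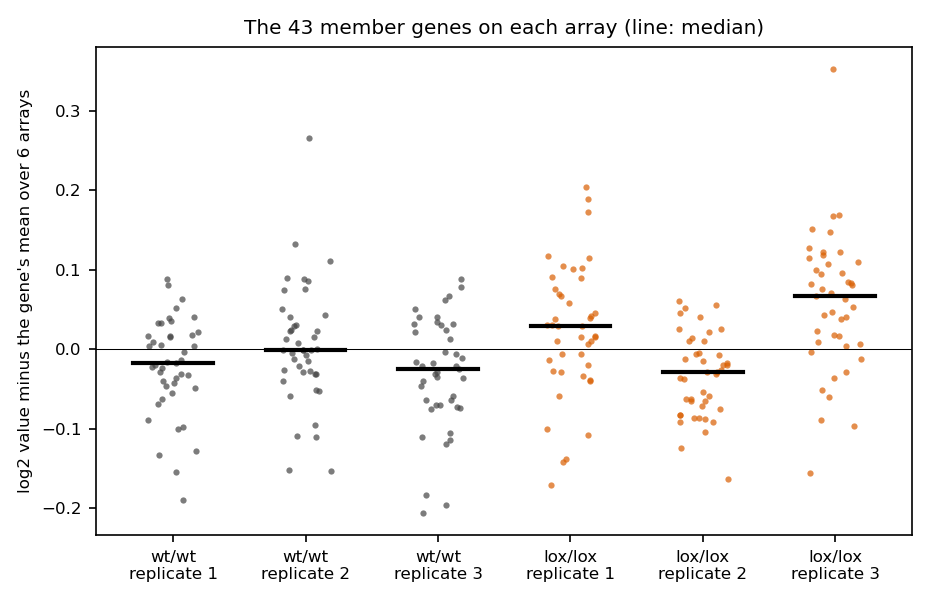
The 43 genes on each array, as log2 value minus the gene's mean over the 6 arrays (vertical axis). Each point is a gene and the line is the median, which runs from -0.03 on lox/lox replicate 2 to 0.07 on lox/lox replicate 3.

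A further 117 measured genes of ribosome biogenesis that were not among the 43 had a median change of -0.01. They gave 3 calls, 1 higher and 2 lower, where 6.16% of all genes were called. At an unadjusted p under 0.05 in limma there were 13 (11.1%), against 18.0% of all genes. Nol9, a kinase that takes part in cutting the large subunit precursor, rose by 0.43 from 9.34 ± 0.06 to 9.77 ± 0.06 (SD, n = 3; limma adjusted p = 0.00909), the only call among 44 other large subunit genes. Znrd1, a small RNA polymerase I subunit, fell by 0.35 (limma adjusted p = 0.0319), the only call among 14 other genes of that enzyme. Wrap53, which guides telomerase and other box H/ACA RNAs to Cajal bodies, fell by 0.46 (limma adjusted p = 0.0124), the only call among 14 other snoRNP genes. None of 45 other small subunit genes passed in limma. At an unadjusted p under 0.05 in limma there were 6, of which 2 were higher and 4 lower. Utp14a, a factor of the early precursor, had the smallest p at a change of 0.30 (limma adjusted p = 0.0655).

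These calls were lost in some runs with arrays left out, where fewer arrays also give less precision. Without 1 array the change of Nol9 ran from 0.39 to 0.46, of Znrd1 from -0.39 to -0.30 and of Wrap53 from -0.53 to -0.39. Without both arrays that stood apart, or without wt/wt replicate 3, none of the 117 was called, and without lox/lox replicate 2 only Nol9 was. In limma the adjusted p of Nol9 was 0.0516 without wt/wt replicate 3, and Wrap53 stood at 0.0622 with that same array left out and at 0.0604 when lox/lox replicate 2 was left out. For Znrd1 it was 0.105, 0.0992, 0.131 and 0.0863 without wt/wt replicates 2 and 3 and lox/lox replicates 2 and 3 in turn.

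The cytosolic ribosomal protein genes, whose products the pathway assembles, had a median change of 0.03 over 59 genes. They held 1 call, where 6.16% of all genes were called. Rps3a1, a small subunit protein, was the only call, falling by 0.38 (limma adjusted p = 0.0323), and it was not called without wt/wt replicates 2 or 3 or lox/lox replicates 1 or 2 (limma adjusted p of 0.0872 to 0.143), nor without both arrays that stood apart (0.103). Ribosomal protein genes have many near-identical copies in the mouse genome, so the value of any one of them is uncertain.

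**Figure D4:**
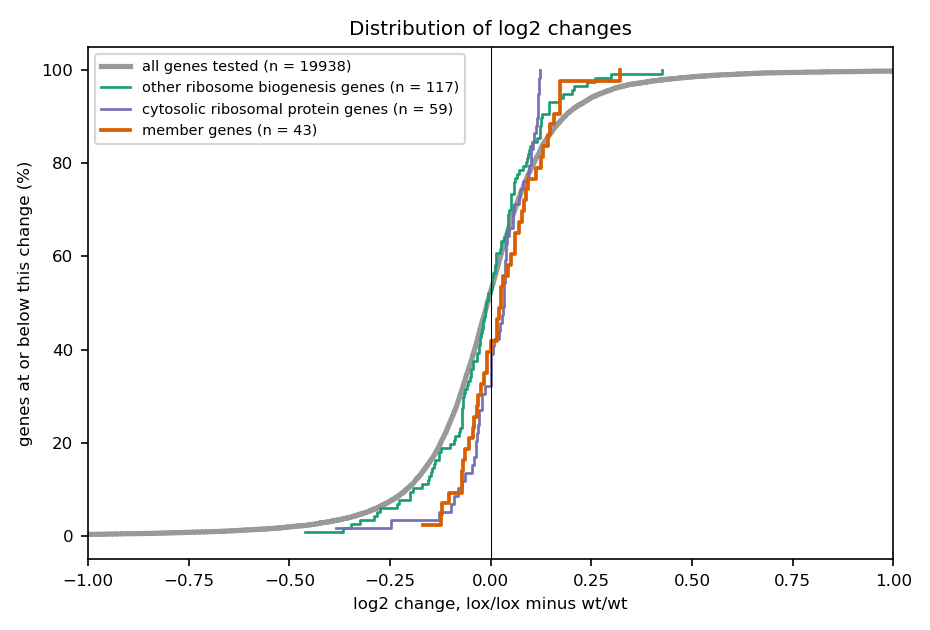
Cumulative share of genes (vertical axis, percent) at or below each log2 change, lox/lox minus wt/wt (horizontal axis), for the 43 genes, 117 other ribosome biogenesis genes, 59 ribosomal protein genes and all 19938 genes tested. The curve of the 43 genes is steeper than that of all genes and crosses 0 near the middle, with the last step at Tert.

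Around Odc1, Srm and Cad, a list of 30 further genes of nucleotide and polyamine synthesis had a median change of -0.04. It held 3 calls, where 6.16% of all genes were called. Umps, the enzyme of the last steps of pyrimidine synthesis downstream of Cad, fell by 0.53 (limma adjusted p = 0.00754) and was called without each array in turn. Sat1, which acetylates polyamines for breakdown or export, rose by 0.42 (limma adjusted p = 0.0112, or 0.0602 when wt/wt replicate 3 was left out). Mthfd2, a mitochondrial folate enzyme, fell by 0.45 (limma adjusted p = 0.036), and the call was lost without any of 5 of the 6 arrays, all but lox/lox replicate 3 (adjusted p up to 0.154). With wt/wt replicate 3 left out, Umps was the only call of the 30, and without both arrays that stood apart 2 were called, Umps and Mthfd2, with Sat1 at an adjusted p of 0.0859.

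Among 8 measured partners of Tert and telomere proteins, 2 were called, where 6.16% of all genes were, and none was without both arrays that stood apart. Terf1 (TRF1), which binds the telomere repeat, rose by 0.41 (limma adjusted p = 0.0124, or 0.0596 with wt/wt replicate 3 left out and 0.0866 with both left out). Tinf2 (TIN2), which links the telomere proteins, fell by 0.36 (limma adjusted p = 0.0305), and this call was lost without any array but lox/lox replicate 3 (adjusted p up to 0.132; 0.0665 without both arrays).

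Promoter sequence was set beside the changes because the list is named for Myc. RefSeq promoters (GRCm38.p6) run here from 250 bases before to 50 bases after the gene's start, and 39 of the 44 genes had one, the other 5 being Npm1, Rrp12, Srm, Fbl and Bop1. The motif searched was CACGTG, the E-box core, which reads the same on both strands. It was in 7 of the 39 genes (17.9%), in 19 of 96 other ribosome biogenesis genes (19.8%) and in 1483 of 15614 genes on the array (9.5%). The motif holds a CG, and the promoters differ in that dinucleotide, with a median of 21 in the 39 genes, 21.75 in the other ribosome biogenesis genes and 15 in genes on the array, and its part in these shares was not tested. The 8 sites are shown with up to 10 bases on either side, 5′ to 3′ on the gene's strand, with the motif in capitals.
Imp4, chr1:34439698-34439723, plus strand: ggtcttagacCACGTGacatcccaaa
Nop2, chr6:125131813-125131838, plus strand: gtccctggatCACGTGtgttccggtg
Utp20, chr10:88826765-88826787, minus strand: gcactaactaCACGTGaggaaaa
Pes1, chr11:3963967-3963992, plus strand: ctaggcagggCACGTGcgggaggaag
Mybbp1a, chr11:72441357-72441376, plus strand: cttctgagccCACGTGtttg
Rrn3, chr16:13780474-13780499, plus strand: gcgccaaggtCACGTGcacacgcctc
Rrn3, chr16:13780641-13780666, plus strand: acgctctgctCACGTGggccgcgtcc
Wdr43, chr17:71616222-71616247, plus strand: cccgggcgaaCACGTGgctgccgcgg

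Of the 8 sites, 4 lie before the start (Imp4, Nop2 and both in Rrn3) and 4 after it (Utp20, Pes1, Mybbp1a and Wdr43). The 250 bases before the start are shown for Imp4, which has the smallest p of the genes with the motif, and for Rrn3, the one gene with 2 sites.
Imp4, chr1:34439579-34439828, plus strand: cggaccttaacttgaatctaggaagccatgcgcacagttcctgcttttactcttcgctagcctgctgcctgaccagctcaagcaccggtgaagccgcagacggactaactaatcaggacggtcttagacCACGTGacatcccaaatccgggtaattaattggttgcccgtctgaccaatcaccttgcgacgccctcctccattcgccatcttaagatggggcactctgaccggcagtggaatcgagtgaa
Rrn3, chr16:13780449-13780698, plus strand: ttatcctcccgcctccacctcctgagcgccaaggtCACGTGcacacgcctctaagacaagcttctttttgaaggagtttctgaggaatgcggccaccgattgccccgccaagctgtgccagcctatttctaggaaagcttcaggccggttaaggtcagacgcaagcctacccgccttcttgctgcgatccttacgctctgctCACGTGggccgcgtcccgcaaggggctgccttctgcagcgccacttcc

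The 7 genes with the motif had changes of -0.07 to 0.17 with a median of 0.13, and 5 lay above 0 (Imp4, Pes1, Utp20, Rrn3 and Mybbp1a). Noc2l has a promoter in the table but was not measured. The 31 measured genes whose promoter lacks it had changes of -0.17 to 0.32 with a median of 0.02, and 17 lay above 0. None of either set passed the test, both ranges include 0, and the difference between them was not tested. A match is a description of these letters in this window, and the arrays do not show whether Myc bound there.

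Some of these genes carry small nucleolar RNA (snoRNA) genes inside their own introns, which are cut out of the host transcript and become the guides that the box C/D and box H/ACA proteins carry. Of the 44 genes, 8 hold 25 snoRNA genes in the mouse gene table, and 4 of these were measured, in Nop56, Ncl and Wdr43. These 4 were looked at after the values were seen. Snord57, inside Nop56, read 8.35, 8.41 and 8.51 in wt/wt and 9.03, 9.07 and 8.99 in lox/lox, without overlap. It rose by 0.61 with a standard error of 0.08 (1.52-fold; limma adjusted p = 0.00132), while Nop56 differed by -0.01. It was called under every alternative at a threshold of 0.05, with an adjusted p of at most 0.0167.

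The snoRNAs in the other hosts did not pass. Snord82, inside Ncl, stood at 5.63, 5.88 and 5.80 against 6.15, 6.27 and 5.998, without overlap, a change of 0.37 (limma adjusted p = 0.0543, from 0.0173 to 0.213 over the alternatives, and 0.0415 without both arrays that stood apart), while Ncl differed by -0.05. Snora75, also inside Ncl, differed by -0.07 and Snord53, inside Wdr43, by 0.07, both with overlap. A probe set inside an intron cannot tell the mature snoRNA from unspliced host transcript.

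**Figure D5:**
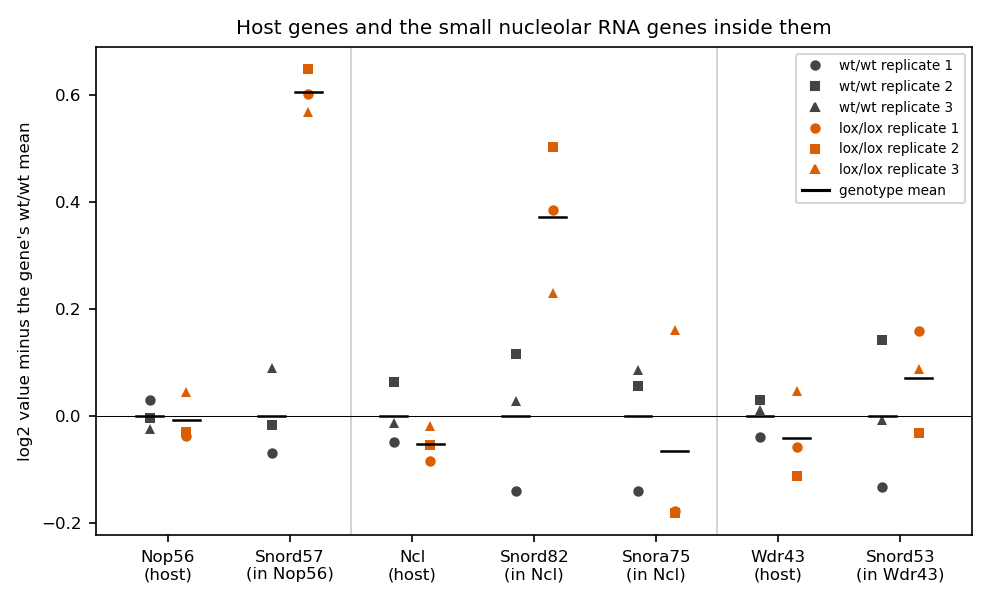
Log2 value minus the gene's wt/wt mean (vertical axis) for Nop56, Ncl and Wdr43 and for the snoRNA genes inside them, 1 point per array, grey for wt/wt and orange for lox/lox, with the genotype mean as a black line. Snord57 stands at 0.61 above its wt/wt mean in lox/lox, and its host Nop56 at -0.01.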

How the data were processed

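RNA of 3 lox/lox and 3 wt/wt cultures was hybridised to 1 array each. The authors deposited log2 values per probe set, made by RMA with affy, per the submitters' processing notes; RMA corrects background, scales arrays to one another and summarises probes. Their versions were not given in the sources used here, and the file holds no scanner values, so signal over background was not used here. The log2 scale was inferred from the deposited values. Probe sets with 1 gene symbol in the platform annotation were kept, 1 per gene, giving 19938 genes, and tested with limma 3.58.1 in R 4.3.3 (4 residual and 6.14 prior degrees of freedom) with Benjamini-Hochberg adjustment. The number of arrays limits the precision, and p-values measure the spread between the 3 replicates of a genotype, which the labels call biological. After each genotype's mean was subtracted, arrays with the same replicate number correlated at 0.101, -0.228 and -0.103. Each wt/wt array correlated best with a lox/lox array of another number. A batch shared under other numbers was not tested. The script was tested on simulated data.

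The members and lists were chosen with earlier results of these data known. Genes given in full were, in each role, those with the smallest p, the highest and the lowest change, together with Ncl, Npm1, Fbl, Odc1, Cad and Tert, and in other lists up to 4 called genes, or else the one with the smallest p. Others given in full (Nop56, Heatr1, Rrp12, Bop1, Srm and the snoRNA genes) were chosen after their values were seen. Alternatives were other scalings, a filter on dim genes, other probe set rules, limma with trend and robust or with array weights, a replicate block, arrays left out and other thresholds.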

Additional observations from a re-analysis of the deposited data

How the results depend on the processing

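No gene of the 43 was called under any alternative at an adjusted p under 0.05 in limma, and at a threshold of 0.10 only Tert was (1). Their median change stayed between 0.0056 and 0.0455, and 0.0091 to 0.0388 without 1 array. Of the 43, 30 kept 1 sign over 16 alternatives and 13 changed sign in some. Beside those of Taf1d, the probe sets not used gave changes of 0.05 for Fbl, -0.06 for Ddx18, -0.06 for Odc1 and 0.09 for Wdr12. All genes called numbered 1228, 697 without both arrays that stand apart on the first principal component (wt/wt replicate 2 and lox/lox replicate 3), 553 at a threshold of 0.01, and 626 to 1132 without 1 array. The 3 calls among other ribosome biogenesis genes became 5 with quantile normalization, 6 without dim genes, 8 with trend and robust, 7 with array weights, 0 without both arrays, 1 at 0.01, 8 at 0.10 and 0 to 4 without 1 array. The single ribosomal protein call became 0 without both arrays or at 0.01, and 0 to 1 without 1 array. The 3 nucleotide and polyamine calls became 6 with trend and robust, 1 at 0.01 and 1 to 3 without 1 array. The cause of these differences was not tested. With the replicate number as a block, 1086 genes were called, 0 of the 43, 2 other ribosome biogenesis genes (adjusted p for Znrd1 0.0664), 1 ribosomal protein gene and 2 nucleotide and polyamine genes (Mthfd2 0.0509), and Tinf2 was at 0.0555, and the median change was 0.0245. Other scalings moved the median of all genes by at most 0.0189 in size (-0.0189, median centring). With 3 arrays per genotype the standard error of a change was 0.0708 to 0.116 over the 43 genes, which limits what could be detected.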

Other observations

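Snord57 was set beside all other small nucleolar and Cajal body RNA genes on the array, a group looked at after its values were seen. Of 54 such genes tested, 7 were called (13.0%), all higher in lox/lox, where 6.16% of all genes were called and 2.55% were called higher. Of the 54, 41 (75.9%) lay above 0, with a median change of 0.11, against 47.5% of all genes with a median of -0.0079. Beside Snord57 these were Snora74a at 0.57, Snord42b at 0.55, Snord33 at 0.49, Snord73b at 0.47, Snord58b at 0.46 and Snora16a at 0.40 (limma adjusted p from 0.00382 for Snord73b to 0.0171 for Snord58b, n = 3 per genotype). Most RNAs of these families are known to guide methylation (Snord) or pseudouridylation (Snora) of ribosomal RNA. The transcripts that encode proteins they bind, Fbl, Nop56, Nop58, Nhp2, Gar1 and Dkc1, differed by -0.03 to 0.06, and protein was not measured. Snord73a, close in name to Snord73b, went the other way with a change of -0.34 and did not pass (limma adjusted p = 0.12).

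The number called among the 54 lay between 3, at a threshold of 0.01, and 12, with array weights or with trend and robust, and none was called lower under any of them. It was 4 when wt/wt replicate 3 was left out and also 4 when lox/lox replicate 2 was, and 11 without both arrays that stood apart. In both of those runs Snora16a, Snord33 and Snord58b were not called, and Snord58b was not called without lox/lox replicate 1 either. Many snoRNA genes lie in introns, where mature snoRNA and unspliced host transcript cannot be told apart on these arrays.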
